A study of Mus musculus with 12 samples.

Results

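Intraflagellar transport (IFT) proteins, kinesins and cytoplasmic dynein carry cargo along microtubules. Their transcripts were measured in sorted mouse spermatids by Nanopore direct RNA sequencing, in which native poly(A) RNA is read without copying and each read stands for 1 molecule. Members were chosen by gene symbol alone, as every contig whose symbol began with Bbs, Klc, Dync, Dynl or Dctn, or with Ift or Kif followed by a digit. A contig is 1 reference transcript to which reads were assigned. This gave 118 contigs of 12114 in the count table, from 69 genes of 7009 with a symbol. Of these contigs, 99 were annotated as protein coding, 10 as retained intron, 4 as processed transcript and 4 as targets of nonsense-mediated decay, and 30 genes had more than 1 contig.

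The 12 libraries fell into 4 groups of 3: round (RS) and elongated (ES) spermatids of adult males, each with Tent5c wt/wt or Tent5c dcat/dcat. TENT5C lengthens the poly(A) tails of RNAs, and its dcat form lacks catalytic activity in every cell of the mouse. RNA of 3 mice was pooled for each library, so that single animals cannot be read. Cells of dissociated testis had been sorted on the fluorescence of a DNA stain (Hoechst) and on light scatter, with dead cells excluded by PI. Counts do not show which allele a read came from, so the genotype labels were taken as given.

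Libraries held between 337287 and 1359427 counts in all. The members took 1.88 to 2.07% of all counts in RS libraries and 1.11 to 1.18% in ES libraries. After TMM scaling, a correction for differences in library composition, their summed level was 14977 to 16192 CPM (counts scaled to a common library total) in wt/wt RS and 14097 to 15570 CPM in wt/wt ES. CPM here count molecules and are not divided by length. A count of 3 per library, taken as the floor, was worth 1.77 to 10.6 CPM. The markers of elongated spermatids summed to 20785 to 43896 CPM in wt/wt RS and 221176 to 290406 CPM in wt/wt ES, with 19 of 21 contigs higher in ES. Of 8 contigs of round spermatid markers, 5 were lower and 1 was higher. Summed markers of somatic cells were also higher in ES libraries. Leydig cell markers, of which 6 of 10 had a contig, summed to 65.6 to 128 CPM in wt/wt RS and 450 to 862 CPM in wt/wt ES, and Sertoli cell markers, of which 7 of 13 had one, to 25.0 to 36.1 and 240 to 439 CPM. In wt/wt ES, 6 of 7 Leydig contigs and 9 of 9 Sertoli contigs were higher. Insl3 had a mean of 443 CPM in wt/wt ES, and the paper also treats it as a TENT5C target in ES. Fdx1 had means of 63.0 CPM in wt/wt RS and 54.6 CPM in wt/wt ES. The defining markers Star, Hsd3b1, Sox9 and Wt1 were listed but had no contig under their symbol. Meiotic markers, 11 of 16 with a contig, summed to 1150 to 1281 CPM in wt/wt RS and 976 to 1113 CPM in wt/wt ES. Of their 21 tested contigs, 4 were higher and 6 lower in wt/wt ES. The part of these cells in the results below was not tested.

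Intraflagellar transport moves building blocks along the axoneme of a growing cilium or flagellum. Kinesin-2 motors carry trains of IFT-B and IFT-A complexes to the tip, dynein-2 carries them back, and the BBSome links membrane cargo to the trains. Spermatids use the same machinery while they build the sperm tail, and transport along the manchette, a skirt of microtubules around the nucleus, draws on kinesins and on cytoplasmic dynein with its activator dynactin.

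The first comparison asked how the abundance of these transcripts differed between stages in wt/wt cells. Of 117 contigs tested, 52 passed an adjusted p of 0.05 (edgeR's quasi-likelihood test, adjusted over 11831 contigs), beside 40.3% of all contigs. Of them, 26 contigs of 12 genes were higher in ES (background 23.8%) and 26 contigs of 24 genes were lower (background 16.5%). The median log2 change was -0.60 over the members and -0.24 over all contigs. In dcat/dcat cells 59 contigs passed, beside 41.0% of all contigs, with 27 higher (background 24.0%) and 32 lower (background 16.9%), and the medians were -0.59 and -0.18. With the replicate number as a block the higher calls stayed at 26 and 27, but 43 contigs were lower in wt/wt and 47 in dcat/dcat (37.7 and 36.5% higher), and 6105 and 6145 of all 11831 contigs passed. Without the block, 44 contigs passed in both genotypes, 26 of them higher and 18 lower in each, and 0 passed in opposite directions. The share of all contigs that passed in both genotypes is not given here.

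The higher contigs came from fewer genes than the lower ones. Of the 26 higher contigs in wt/wt, 12 were of dynein light chains. Dynll1, Dynll2, Dynlt5, Kif27, Ift172, Klc3 and Kif2c had more than 1 contig higher. Levels are relative to the other RNA in a library. Fewer cells of a type and less RNA per cell cannot be told apart in these bulk samples. The split depended on the scaling as well: with total counts alone 89 members passed, 21 higher and 68 lower (23.6% higher, against 50.0% after TMM), because the median of all contigs then moved by -0.71 on the log2 scale, and in dcat/dcat 90 passed, 22 higher and 68 lower (24.4% against 45.8%).

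**Figure D1:**
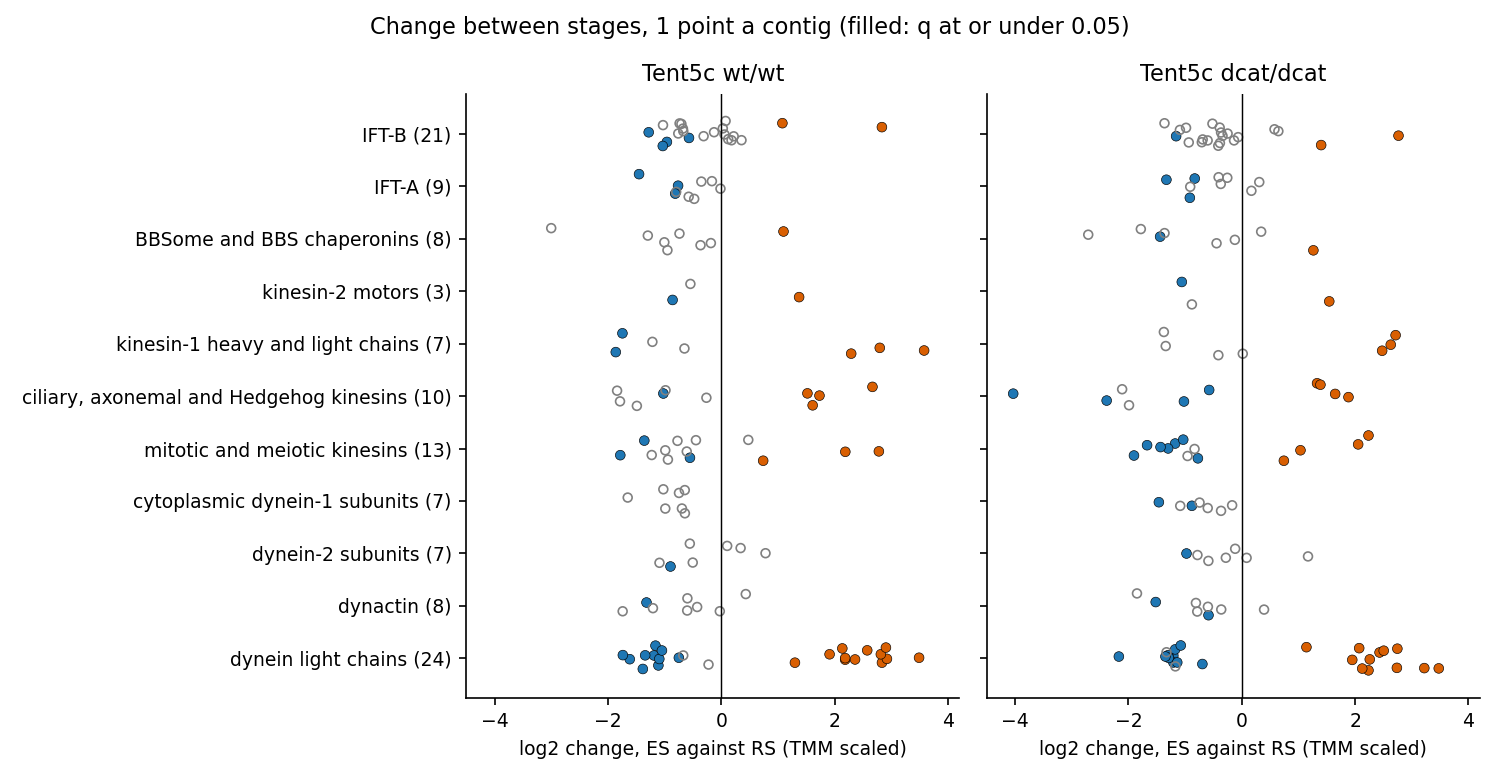
Log2 change from RS to ES (x axis) in wt/wt (left) and dcat/dcat (right) for each of the 117 member contigs tested, 1 point per contig, in rows by role with the number of contigs in brackets. Filled points passed an adjusted p of 0.05 (orange higher, blue lower in ES); of 24 dynein light chain contigs 12 were higher and 10 lower in each genotype, and most other rows lay mainly to the left of 0.

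Dynein light chains were the members that passed most often, and they moved apart by family. When only contigs with at least 10 counts in every library were fitted, 41 of 43 members passed in wt/wt and 42 in dcat/dcat. Of all 3719 contigs so fitted, 2588 and 2562 passed. How far the share passing in a role followed its depth was not tested. Light chains are small dimeric proteins at the base of the dynein motor. Of 24 contigs tested, 12 were higher and 10 lower in ES in each genotype (11 and 12 with total counts alone in each). All 7 contigs of the LC8 family (Dynll1 and Dynll2) were higher. Of the Tctex family, the contigs of Dynlt5 and Dynlt3 were higher. Those of Dynlt1a, Dynlt1b, Dynlt1c, Dynlt1f, Dynlt2a2 and Dynlt2a3, with the leading contigs of Dynlt2a1 and Dynlt2b, were lower in wt/wt. The lower light chain contigs came from 9 genes in wt/wt and 8 in dcat/dcat.

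The LC8 coding sequences are shown because they differ at many positions, unlike those of the Tctex copies below, so a read of one gene is less readily taken for the other. Each is 267 bases long, they match at 217 positions (81.3%), and capitals mark the 50 bases that differ. Both were read from GENCODE vM21 transcripts on build GRCm38, the first at chr5:115298699-115300644 and the second at chr11:87981436-87984003, each on the minus strand with introns removed.
Dynll1 coding sequence: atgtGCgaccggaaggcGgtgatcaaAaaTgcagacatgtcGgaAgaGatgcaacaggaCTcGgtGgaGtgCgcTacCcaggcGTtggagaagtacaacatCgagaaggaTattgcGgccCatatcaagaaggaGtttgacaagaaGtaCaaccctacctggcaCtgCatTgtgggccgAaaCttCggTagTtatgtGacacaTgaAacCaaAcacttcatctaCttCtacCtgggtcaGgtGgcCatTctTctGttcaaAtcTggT
Dynll2 coding sequence: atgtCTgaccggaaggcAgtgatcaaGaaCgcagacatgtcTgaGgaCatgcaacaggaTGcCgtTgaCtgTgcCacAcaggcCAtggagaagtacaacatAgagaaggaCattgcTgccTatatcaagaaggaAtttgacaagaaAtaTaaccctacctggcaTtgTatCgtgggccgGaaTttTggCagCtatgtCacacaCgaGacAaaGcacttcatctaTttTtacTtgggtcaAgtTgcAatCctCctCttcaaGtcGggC

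The main Dynll1 contig (ENSMUST00000009157) codes for the LC8 chain that joins many partner proteins in pairs. It stood at 836, 1096 and 1089 CPM in the 3 wt/wt RS libraries and at 2645, 2713 and 2076 CPM in wt/wt ES. In dcat/dcat it stood at 938, 1070 and 1065 CPM in RS and 2393, 2394 and 1994 CPM in ES. Every ES library lay above every RS library, and the log2 change was 1.30 ± 0.16 (SE) in wt/wt (adjusted p = 1.69e-05) and 1.14 ± 0.16 in dcat/dcat (adjusted p = 5.59e-05). The other 3 Dynll1 contigs held few reads and rose by 2.19 to 2.92 on the log2 scale. One of them, ENSMUST00000202980, lost its call without ES wt/wt replicate 3 (1.68, adjusted p = 0.0852) and with total counts alone (1.50, adjusted p = 0.067).

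Dynll2, the second LC8 gene, rose too. Its leading contig (ENSMUST00000107923) stood at 146, 211 and 233 CPM in wt/wt RS and at 963, 957 and 766 CPM in wt/wt ES. Those of dcat/dcat stood at 184, 193 and 216 CPM in RS and 918, 789 and 789 CPM in ES. Its log2 change was 2.19 ± 0.19 in wt/wt (adjusted p = 1.8e-06) and 2.07 ± 0.19 in dcat/dcat (adjusted p = 3.11e-06), and the stages did not overlap. The other Dynll2 contigs, with the same coding sequence, changed by 2.58 ± 0.28 and 2.14 ± 0.22 in wt/wt. Summed over contigs, Dynll1 changed by 1.48 ± 0.18 and Dynll2 by 2.40 ± 0.22. The difference between both genes was not tested.

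Dynlt5, a less studied Tctex member named Tctex1d1 in the annotation used, changed by 3.01 ± 0.25 when its contigs were summed. Its leading contig (ENSMUST00000030248) stood at 32.4, 34.6 and 46.1 CPM in wt/wt RS and at 344, 243 and 215 CPM in wt/wt ES, a log2 change of 2.82 ± 0.28 (adjusted p = 3.41e-06). The 3 ES libraries of dcat/dcat, at 345, 195 and 214 CPM, lay likewise far above the RS range of 36.3 to 55.2 CPM. The other 3 contigs changed by 2.36 to 3.49. Dynlt3, a Tctex chain found in cytoplasmic dynein, rose from 21.6, 25.0 and 27.8 CPM to 82.4, 105 and 95.3 CPM, a log2 change of 1.91 ± 0.29 (adjusted p = 0.000117).

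The abundant Tctex genes went down. Dynlt2a1 (Tcte3 in older annotation), a testis-rich light chain of the t-complex region, has the contig with the most counts of any member, 43077 over all libraries (ENSMUST00000040746). That contig stood at 4992, 5783 and 5423 CPM in wt/wt RS and at 2546, 2697 and 2595 CPM in wt/wt ES, with a log2 change of -1.05 ± 0.13 (adjusted p = 1.93e-05). In dcat/dcat it stood at 5275, 6252 and 5282 CPM in RS and 2543, 2814 and 2278 CPM in ES, a change of -1.14 ± 0.13. The stages did not overlap in either genotype. Its shorter contig changed by -0.22 ± 0.24 in wt/wt (adjusted p = 0.463) and did not pass. The copies Dynlt2a2 and Dynlt2a3 changed by -1.34 and -1.74 (adjusted p = 0.0167 and 0.023).

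Dynlt1b, one of 4 neighbouring copies on chromosome 17 of the classical Tctex chain, fell from 696, 632 and 760 CPM to 317, 283 and 318 CPM in wt/wt, a log2 change of -1.19 ± 0.15 (adjusted p = 2.54e-05). Dynlt1a, Dynlt1c and Dynlt1f fell by 1.09 to 1.16 on the log2 scale. Dynlt2b, a light chain of dynein-2, fell from 364, 397 and 425 CPM to 156, 152 and 145 CPM, a change of -1.38 ± 0.17 (adjusted p = 1.68e-05). Of the roadblock chains, both Dynlrb2 contigs were lower, by -0.75 (adjusted p = 0.0052) and -1.61 (adjusted p = 0.0191). The coding sequences of the Dynlt1 copies were 99.7 to 100% identical in 6 pairs, and those of the Dynlt2a copies 99.8 to 100% in 3 pairs, so which copy a read came from is uncertain and the families are better read as sums.

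Summed over contigs, LC8 rose from 1511 ± 277 CPM (SD, n = 3) in wt/wt RS to 4946 ± 718 CPM in wt/wt ES. The Dynlt1 copies fell from 2763 ± 61.8 to 1263 ± 95.1 CPM and the Dynlt2a copies from 5960 ± 351 to 2868 ± 55.6 CPM. The other Tctex contigs together rose from 515 ± 59.9 to 841 ± 140 CPM. The balance of both families therefore moved in every library: LC8 reads per Tctex read were 0.136, 0.171 and 0.182 in wt/wt RS and 1.04, 1.09 and 0.849 in wt/wt ES. In dcat/dcat the ratio was 0.147, 0.156 and 0.190 in RS and 0.987, 0.933 and 1.02 in ES. The ratio is taken within a library and does not depend on the scaling. LC8 took 7.97 to 10.9% of the members' counts in wt/wt RS and 29.3 to 35.0% in wt/wt ES, while all Tctex contigs took 58.8 to 59.6% and 32.1 to 34.5%.

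**Figure D2:**
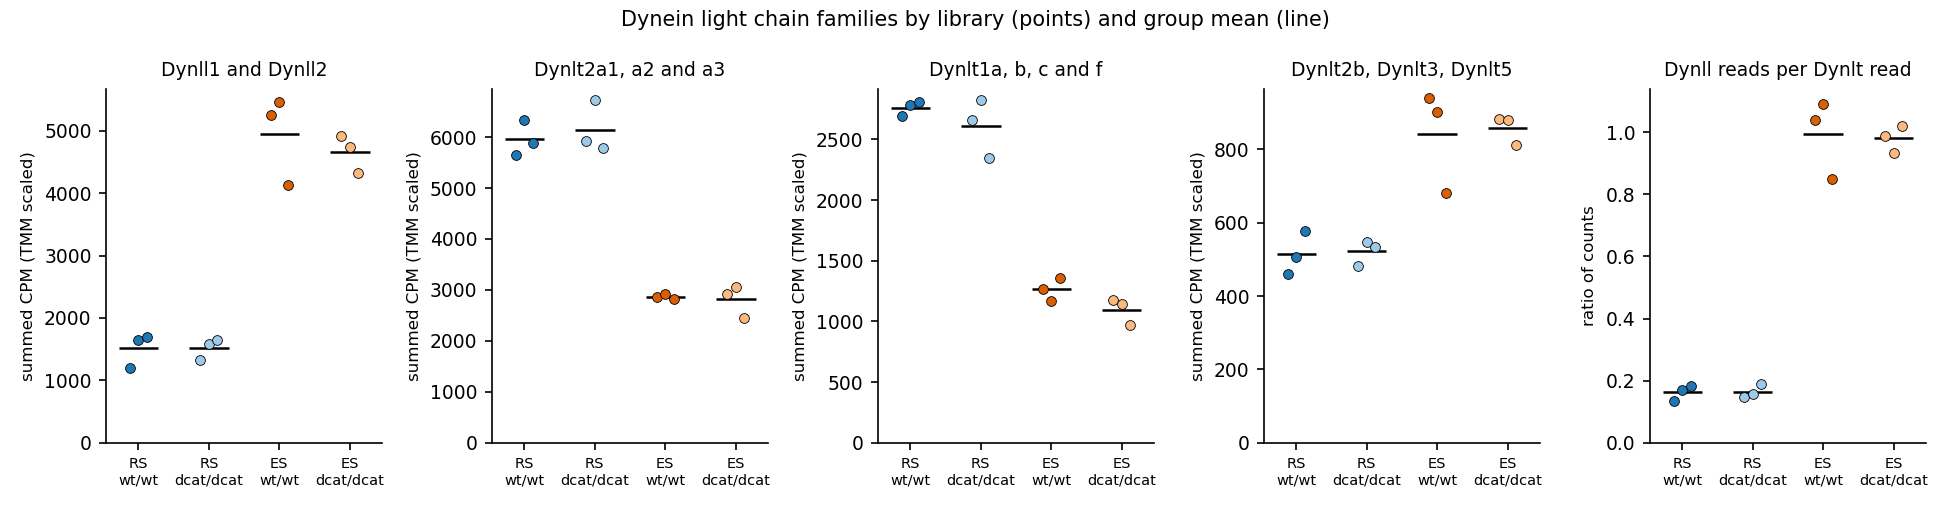
Summed level (CPM after TMM scaling) of 4 dynein light chain families and, in the last panel, LC8 (Dynll) reads per Tctex (Dynlt) read, by stage and genotype, with 1 point per library and a line at the group mean. LC8 was near 1511 CPM in wt/wt RS and 4946 CPM in wt/wt ES, and the Dynlt1 and Dynlt2a copies went the other way in both genotypes.

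Among IFT-B contigs, 2 of 21 were higher and 4 lower in wt/wt ES, and 2 were higher and 1 lower in dcat/dcat. With total counts alone the wt/wt split was 1 and 11. Both higher contigs were those of Ift172, a large IFT-B subunit, and the 2 were not alike. The full-length contig (ENSMUST00000041565) lies at chr5:31253277-31291107 on the minus strand of GRCm38, with 48 exons and 5403 bases. The short contig (ENSMUST00000201426) is annotated as a retained intron. It covers chr5:31253280-31254653, with 5 exons and 742 bases.

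The first exon of the short contig is shown because it holds the bases that set it apart. It lies at chr5:31254402-31254653 on the minus strand. Capitals mark bases that are exons of the full-length contig, 1 base of exon 43 at the start and 60 bases of exon 44 at the end. The 191 lower-case bases between them are the whole intron (chr5:31254462-31254652), which begins with GT and ends with AG.
Ift172 short contig, first exon: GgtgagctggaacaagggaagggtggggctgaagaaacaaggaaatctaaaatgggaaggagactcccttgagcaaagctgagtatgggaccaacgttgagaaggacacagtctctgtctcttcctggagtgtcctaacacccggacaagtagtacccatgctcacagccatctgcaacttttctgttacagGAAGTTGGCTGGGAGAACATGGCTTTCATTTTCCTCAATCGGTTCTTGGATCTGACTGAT

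The short contig shares its remaining 551 bases (74.3%) with the 3′ part of the full-length contig. Reads that stop early, before the intron, could therefore have been given to either contig, and how many did so was not tested. The short contig stood at 80.6, 132 and 148 CPM in wt/wt RS and at 896, 953 and 731 CPM in wt/wt ES. In dcat/dcat it stood at 78.0, 115 and 151 CPM in RS and at 911, 816 and 628 CPM in ES. The stages were far apart in both genotypes, with log2 changes of 2.84 ± 0.27 (adjusted p = 2.47e-06) and 2.77 ± 0.27 (adjusted p = 4.38e-06).

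The full-length contig rose less. It stood at 110, 143 and 139 CPM in wt/wt RS and at 199, 344 and 286 CPM in wt/wt ES, a log2 change of 1.08 ± 0.27 (adjusted p = 0.00589), and in dcat/dcat it changed by 1.40 (adjusted p = 0.000986). With total counts alone the wt/wt change was 0.37 and did not pass (adjusted p = 0.251). The short contig took 42.2 to 51.6% of the gene's counts in wt/wt RS and 71.9 to 81.9% in wt/wt ES. In dcat/dcat it took 47.1 to 50.8% and 63.8 to 81.2%. The ranges did not overlap in either genotype. The highest ES share was that of replicate 1 in each genotype (81.9% in wt/wt and 81.2% in dcat/dcat).

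Contig usage compares the change of each contig with that of its gene. Of 30 member genes with at least 2 tested contigs, 1 passed in wt/wt (edgeR's diffSpliceDGE), beside 4.87% of 2589 genes, and this was Ift172 (adjusted p = 0.00834). Relative to the gene, the short contig changed by 0.66 and the full-length contig by -1.10 on the log2 scale. The call was lost without ES wt/wt replicate 1 (adjusted p = 0.0595). In dcat/dcat the relative changes were 0.54 and -0.83, and the same gene did not pass (adjusted p = 0.0551), but it passed with the replicate number as a block (adjusted p = 0.000311) and with at least 10 counts in every library (adjusted p = 0.0441). In wt/wt the block gave an adjusted p of 4.44e-06.

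The IFT-B contigs that fell differed in level, and Ift25 and Ift20 were low in ES. In ES wt/wt replicate 3, Ift20 lay at the floor of 3 counts (10.6 CPM). Ift70a2 (Ttc30a2), a tetratricopeptide subunit, fell from 294, 293 and 255 CPM to 127, 126 and 162 CPM, a log2 change of -1.03 ± 0.20 (adjusted p = 0.000973). Ift25 (Hspb11), which pairs with Ift27, stood at 29.9, 27.4 and 29.0 CPM and then at 10.6, 11.4 and 14.1 CPM, with a change of -1.28 ± 0.36 (adjusted p = 0.0116) that lost its call without ES wt/wt replicate 1 (-1.11, adjusted p = 0.0735) and without replicate 2 (-1.17, adjusted p = 0.0696). Ift20, a subunit also found at the Golgi, stood at 36.6, 50.0 and 43.2 CPM and then at 29.6, 22.8 and 10.6 CPM. Its change of -0.96 ± 0.32 (adjusted p = 0.0284) did not pass with DESeq2 (adjusted p = 0.0544), nor without RS wt/wt replicate 2, ES wt/wt replicate 2 or ES wt/wt replicate 3 (adjusted p = 0.0788, 0.109 and 0.102). Ift74, which binds tubulin together with Ift81, changed by -0.57 ± 0.22 (adjusted p = 0.0474). The leading contigs of Ift22, Ift27, Ift46, Ift52, Ift57, Ift81 and Ift88 did not pass in either genotype.

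Of 9 IFT-A contigs, 3 were lower in each genotype and the other 6 did not pass. Ift43, the smallest IFT-A subunit, fell from 278, 286 and 237 CPM in wt/wt RS to 110, 98.9 and 81.2 CPM in wt/wt ES. This was a log2 change of -1.45 ± 0.20 (adjusted p = 6.16e-05), and in dcat/dcat it was -1.33 ± 0.20 (adjusted p = 0.000131). Ift140, a core IFT-A subunit, had contigs that changed by -0.81 ± 0.23 (ENSMUST00000153895, adjusted p = 0.0102) and -0.76 (ENSMUST00000024983, adjusted p = 0.0312). The former stood at 84.7, 94.1 and 92.3 CPM in RS and 52.8, 38.0 and 67.1 CPM in ES, and it lost its call without ES wt/wt replicate 2 (-0.54, adjusted p = 0.111). The 5 contigs of Ift122 did not pass in either genotype.

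**Figure D3:**
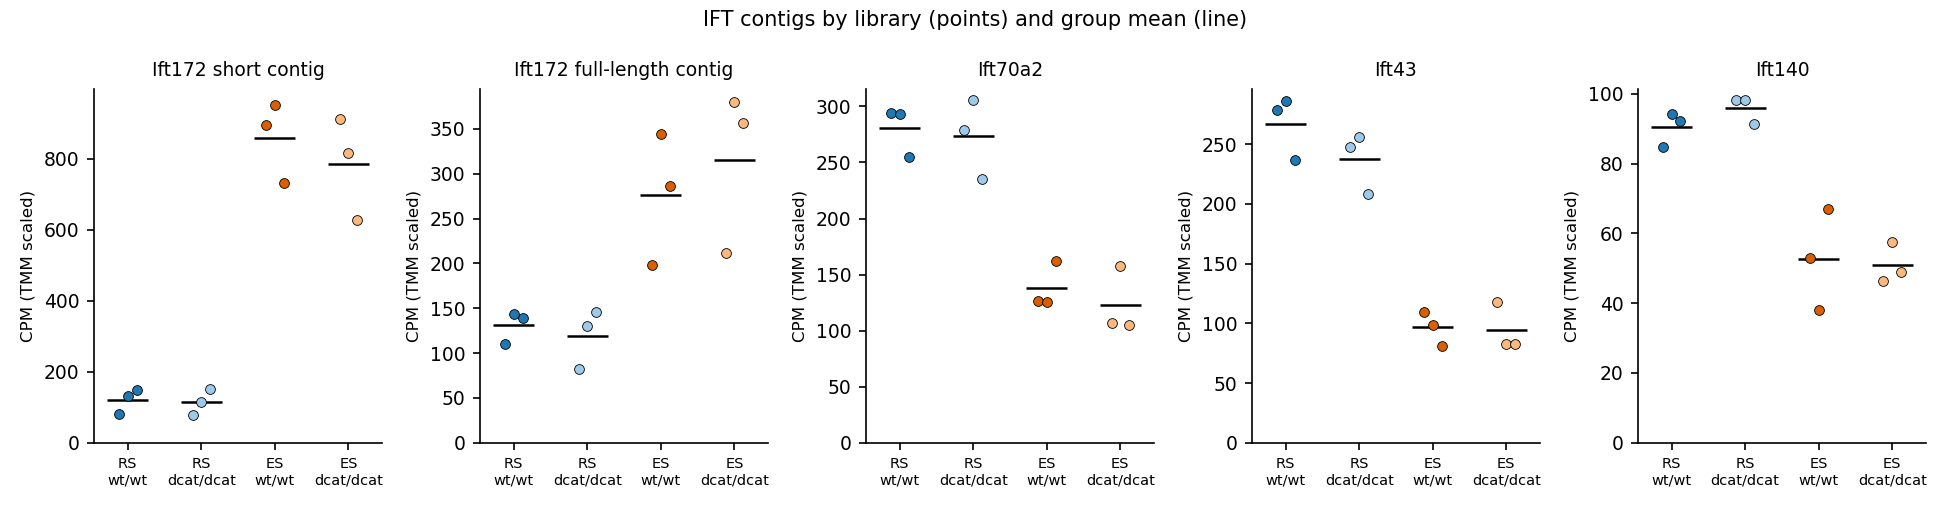
Level (CPM after TMM scaling, axis from 0) of the short and full-length Ift172 contigs, Ift70a2, Ift43 and an Ift140 contig by stage and genotype, with 1 point per library and a line at the group mean. The short Ift172 contig lay at 78.0 to 151 CPM in RS libraries and 628 to 953 CPM in ES libraries, while Ift43 and Ift70a2 were lower in ES.

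Of 8 contigs of the BBSome and its chaperonins, 1 was higher in wt/wt ES and the other 7 did not pass. The higher one was Bbs5, a lipid-binding subunit of the BBSome, at 38.2, 59.6 and 56.2 CPM in RS and 114, 103 and 109 CPM in ES. The log2 change was 1.08 ± 0.23 in wt/wt (adjusted p = 0.00204) and 1.26 ± 0.24 in dcat/dcat (adjusted p = 0.000713), and with total counts alone the wt/wt change was 0.37 (adjusted p = 0.177). The median over the 8 contigs was -0.84. In dcat/dcat 1 contig of Bbs7 was also lower, by -1.44 (adjusted p = 0.015).

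The kinesin-2 motors that pull IFT trains moved apart. Kif17, which forms a motor with itself, stood at 77.3, 72.7 and 78.1 CPM in wt/wt RS and at 167, 196 and 233 CPM in wt/wt ES. Its log2 change was 1.37 ± 0.30 in wt/wt (adjusted p = 0.00192) and 1.54 ± 0.30 in dcat/dcat (adjusted p = 0.00084), and 0.67 (adjusted p = 0.0752) with total counts alone. Kif3b, a motor subunit of the heterotrimeric kinesin-2, fell from 118, 97.7 and 104 CPM to 54.9, 53.3 and 70.6 CPM. Its change of -0.86 ± 0.24 (adjusted p = 0.00955) lost the call without ES wt/wt replicate 1 (-0.73, adjusted p = 0.0598) and without replicate 2 (-0.71, adjusted p = 0.0711). Its partner motor Kif3a changed by -0.54 (adjusted p = 0.34). The stages did not overlap for Kif17 or Kif3b in wt/wt, nor did they for 53.3% of all contigs. For Kif3b this was a condition of its being named.

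Of 7 kinesin-1 contigs, 3 were higher and 2 lower in wt/wt ES. Klc3 codes for a light chain that spermatids use at the mitochondria and outer dense fibres of the tail. Its main contig (ENSMUST00000108458, chr7:19394437-19404104, minus strand) stood at 21.6, 15.5 and 24.2 CPM in wt/wt RS and at 146, 60.9 and 102 CPM in wt/wt ES. In dcat/dcat it stood at 15.0, 10.5 and 18.1 CPM and at 116, 59.9 and 74.3 CPM. The ES libraries spread widely yet lay above the RS libraries in both genotypes, with log2 changes of 2.29 ± 0.35 (adjusted p = 0.000138) and 2.48 ± 0.37 (adjusted p = 0.000121). The second Klc3 contig, with the same coding sequence, changed by 3.58 ± 0.59 in wt/wt (adjusted p = 0.000241). Part of the gene is overlapped by Ercc2 on the other strand, and whether the counting used strand is not given in the sources used here.

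Kif5c, a kinesin-1 heavy chain best known from neurons, rose from 6.65, 4.77 and 4.14 CPM to 35.9, 30.4 and 45.9 CPM, a log2 change of 2.80 ± 0.38 (adjusted p = 4.35e-05). Klc4, another light chain, fell from 18.3, 19.1 and 18.9 CPM to 4.23, 5.71 and 7.06 CPM, a change of -1.74 ± 0.42 (adjusted p = 0.00403). These ES levels lay at or under the floor of 3 counts, worth 6.34, 5.71 and 10.6 CPM in ES wt/wt replicates 1, 2 and 3. A contig of Klc2 fell by 1.86 ± 0.62 on the log2 scale (adjusted p = 0.0271), which did not pass with DESeq2 (adjusted p = 0.0875) or without RS wt/wt replicate 2, ES wt/wt replicate 1 or ES wt/wt replicate 2 (adjusted p = 0.0673, 0.131 and 0.159). In dcat/dcat neither passed (-0.41, adjusted p = 0.515 for Klc4 and -1.37, adjusted p = 0.085 for Klc2).

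Of 10 contigs of kinesins of the axoneme and of Hedgehog signalling, 4 were higher and 1 lower in wt/wt ES, and 4 were higher and 4 lower in dcat/dcat, the lower ones being of Kif7 and Kif9. The 4 higher contigs in each genotype were those of Kif27, a relative of Kif7 that acts in motile cilia. The leading contig stood at 35.7, 32.2 and 33.7 CPM in wt/wt RS and at 135, 122 and 77.7 CPM in wt/wt ES, a log2 change of 1.73 ± 0.26 (adjusted p = 0.000129), and the 4 contigs changed by 1.52 to 2.67. Kif9 is a kinesin of the central apparatus of the axoneme. Its contig with the most counts changed by -0.26 ± 0.19 in wt/wt (adjusted p = 0.28) and -0.58 ± 0.19 in dcat/dcat (adjusted p = 0.026). A second contig changed by -1.02 ± 0.34 (adjusted p = 0.0275) and lost its call without RS wt/wt replicate 1 or 2 or ES wt/wt replicate 1 or 2 (adjusted p = 0.0611, 0.0545, 0.079 and 0.211).

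Kinesins of mitosis and meiosis gave 3 higher and 3 lower contigs of 13 in wt/wt ES, and 4 higher and 7 lower in dcat/dcat. The higher ones belonged to the kinesin-13 family, which takes microtubules apart. The main contig of Kif2c stood at 51.5, 57.2 and 66.8 CPM in wt/wt RS and at 196, 333 and 275 CPM in wt/wt ES, a log2 change of 2.19 ± 0.30 (adjusted p = 5.31e-05). Its second contig stood at 23.3, 21.4 and 24.8 CPM and then at 289, 78.0 and 113 CPM. ES wt/wt replicate 1 was thus lowest in the main contig and highest in the second, and the summed gene changed by 2.52 ± 0.18. The second contig took 59.6, 19.0 and 29.1% of the gene's counts in the wt/wt ES libraries. In dcat/dcat ES replicate 1 likewise stood apart, with 54.0% against 15.1 and 19.4% in replicates 2 and 3. Kif2b, a gene with 1 exon, rose from 228, 178 and 187 CPM to 342, 331 and 318 CPM, a change of 0.74 ± 0.17 (adjusted p = 0.00326) that was 0.02 with total counts alone (adjusted p = 0.92).

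The lower ones act in cell division. Kif18b, which shortens astral microtubules, fell from 66.5, 70.3 and 33.7 CPM to 21.1, 22.8 and 21.2 CPM, a log2 change of -1.36 ± 0.37 (adjusted p = 0.00905). A contig of Kif20a, a kinesin of cytokinesis, stood at 39.9, 23.8 and 26.0 CPM in wt/wt RS and at 6.34, 9.51 and 10.6 CPM in wt/wt ES, a change of -1.78 ± 0.45 (adjusted p = 0.0054). In ES wt/wt replicates 1 and 3 this contig lay at the floor of 3 counts. Kif2a, another kinesin-13, went against its relatives: its main contig changed by -0.55 ± 0.18 (adjusted p = 0.0271). That call was lost when the 2 compared groups were fitted alone (adjusted p = 0.0532) and without RS wt/wt replicate 1 or 2 or ES wt/wt replicate 1 or 2 (adjusted p = 0.0771, 0.0632, 0.195 and 0.138).

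**Figure D4:**
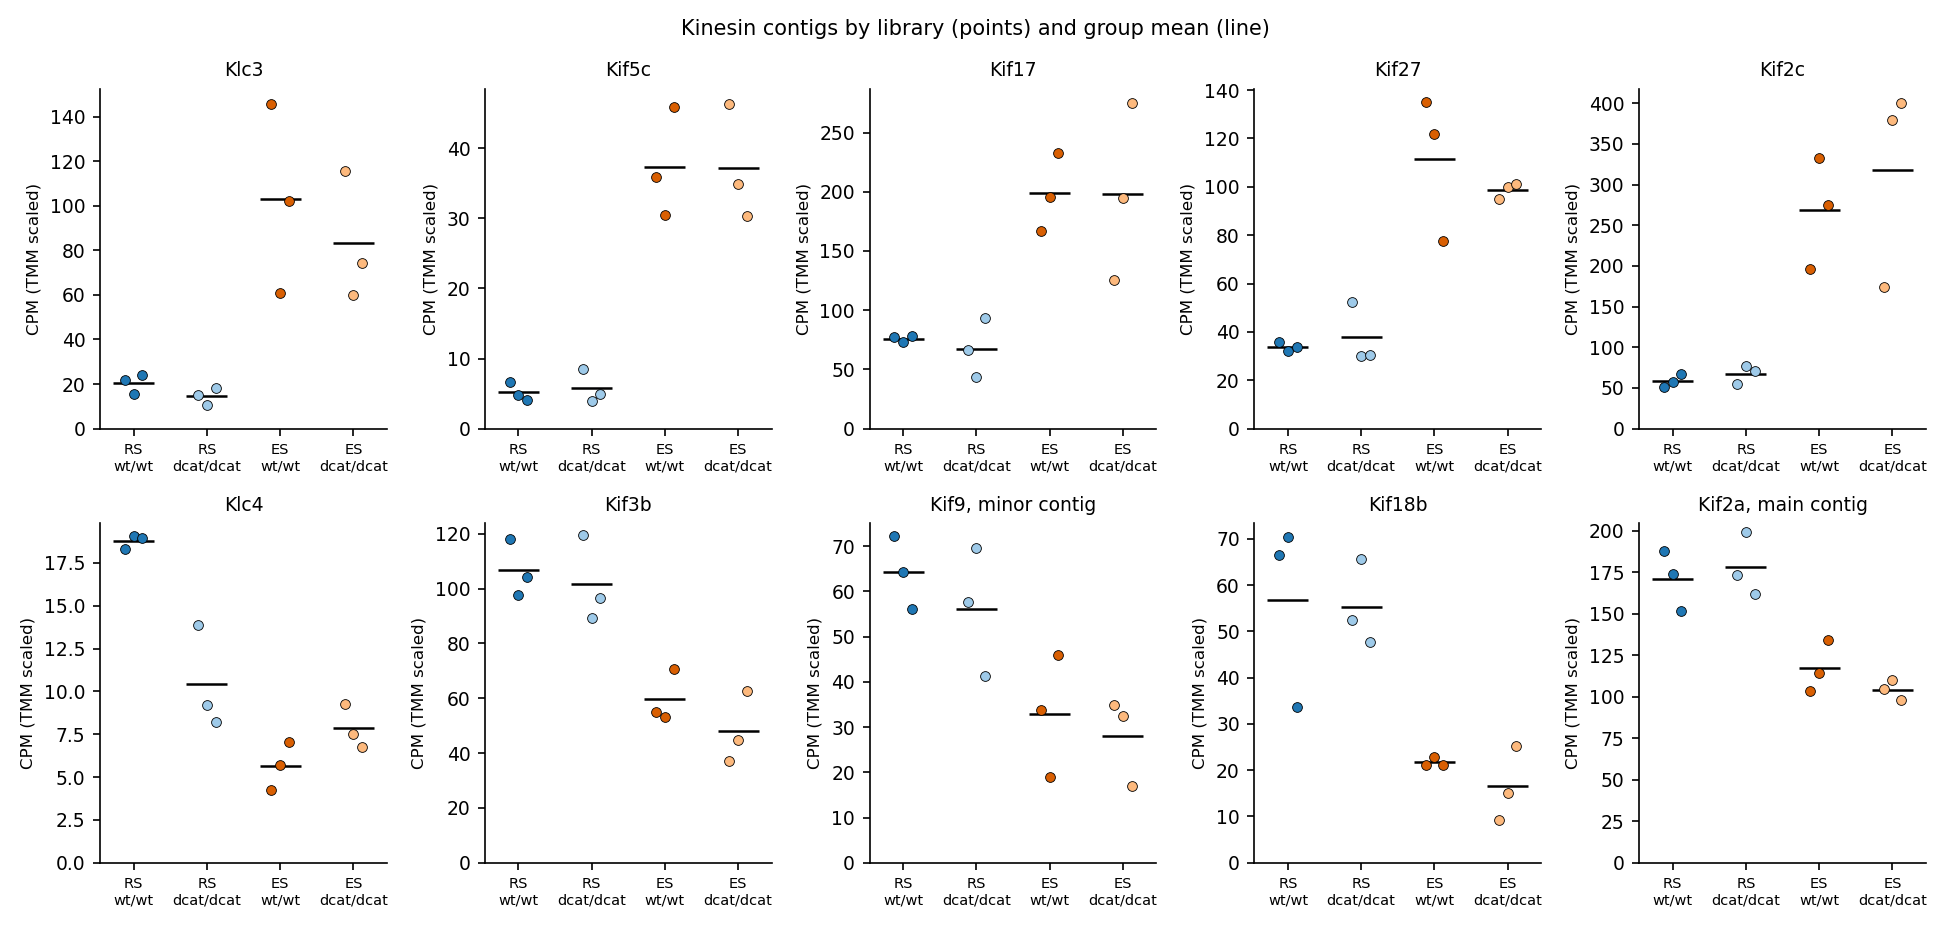
Level (CPM after TMM scaling, axis from 0) of 10 named kinesin contigs by stage and genotype, with 1 point per library and a line at the group mean. Klc3, Kif5c, Kif27 and Kif2c were higher in ES libraries, and Klc4 lay between 4.23 and 9.27 CPM in ES and 8.24 and 19.1 CPM in RS.

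Contigs of cytoplasmic dynein-1 had negative fitted changes throughout, as most member contigs did, though few passed. Of its 7 contigs, 0 passed in wt/wt (edgeR, 3 at an unadjusted p under 0.05, and 0 by DESeq2), while 6 were lower with total counts alone, and 2 were lower in dcat/dcat (5 with total counts alone). The fitted change was below 0 for 7 of 7 contigs in each genotype, with medians of -0.75 in wt/wt and -0.75 in dcat/dcat. These contigs came from 3 genes. Over all members, 79 of 117 contigs were below 0 in wt/wt and 81 in dcat/dcat, with medians of -0.60 and -0.59. The heavy chain Dync1h1, which holds the motor domain, stood at 120, 95.3 and 98.2 CPM in wt/wt RS and at 61.3, 66.6 and 74.2 CPM in wt/wt ES. The stages did not overlap, but the change of -0.64 ± 0.30 did not pass (adjusted p = 0.0984). The contigs that passed in dcat/dcat were both of the light intermediate chain Dync1li2, at -0.88 (adjusted p = 0.018) and -1.46 (adjusted p = 0.023).

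Of 7 contigs of dynein-2, the IFT motor that returns trains to the base, 1 was lower in each genotype. Its light intermediate chain Dync2li1 stood at 81.4, 94.1 and 60.9 CPM in wt/wt RS and at 40.1, 39.9 and 45.9 CPM in wt/wt ES. The change of -0.91 ± 0.27 (adjusted p = 0.0149) lost its call without RS wt/wt replicate 2, ES wt/wt replicate 1 or ES wt/wt replicate 2 (adjusted p = 0.0567, 0.0853 and 0.0931). The heavy chain Dync2h1 did not pass with either of its contigs.

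Dynactin gave 1 lower contig of 8 in wt/wt and 2 in dcat/dcat. Dctn6, a subunit of the pointed-end complex, fell from 134, 120 and 131 CPM to 42.3, 53.3 and 60.0 CPM in wt/wt, a log2 change of -1.32 ± 0.24 (adjusted p = 0.000462), and by 1.52 ± 0.23 in dcat/dcat (adjusted p = 0.000147). Dctn2 (dynamitin), which held the most counts of the group, changed by -0.60 ± 0.25 in each genotype (adjusted p = 0.0675 and 0.0641). Its change passed with the replicate number as a block (adjusted p = 0.00831) and in the 2 compared groups alone (adjusted p = 0.0475), and the same held for Dync1h1 (adjusted p = 0.0296 and 0.0417).

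Genes that work with these motors but carry other symbols were read from a list of 42, of which 24 had a contig and several others are members under newer names. Of their 40 contigs, 10 were higher and 8 lower in wt/wt ES, beside 23.8 and 16.5% of all contigs. In dcat/dcat 11 were higher and 8 lower, beside 24.0 and 16.9%. Whether the list differed from all contigs was not tested. Hook1, a dynein adaptor needed for the manchette, rose from 131, 116 and 157 CPM to 685, 723 and 558 CPM, a log2 change of 2.28 ± 0.19 (adjusted p = 1.67e-06). Capzb, which caps actin-like filaments including that of dynactin, changed by 2.72 ± 0.27, and the adaptor Hook3 by 3.18 ± 0.40. Among those lower in ES, Lztfl1 and Arl6, which act on the BBSome, changed by -1.14 ± 0.20 (adjusted p = 0.000491) and -1.32 ± 0.28 (adjusted p = 0.00169), and a contig of Hook2 by -1.62 ± 0.31 (adjusted p = 0.000831).

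Contig usage in dcat/dcat passed for 2 member genes of 30, beside 5.06% of 2589 genes. These were Kif2a (adjusted p = 0.00439) and Dynll1 (adjusted p = 0.0194). The minor Kif2a contig took 4.71 to 9.26% of the gene's counts in dcat/dcat RS and 11.8 to 23.7% in dcat/dcat ES, and in wt/wt it took 6.22 to 7.25% and 12.5 to 13.6%, where the test did not pass (adjusted p = 0.194). The main Dynll1 contig took 97.4 to 98.7% in wt/wt RS and 91.4 to 97.2% in wt/wt ES, and there the adjusted p was 0.0604. The Kif2a call was lost without ES dcat/dcat replicate 3. That of Dynll1 was lost without RS dcat/dcat replicate 1 or 3 or ES dcat/dcat replicate 2 or 3. Dynlt2a1 and Kif9 did not pass in wt/wt either (adjusted p = 0.0515 and 0.406). With the replicate number as a block, Dynll1 (adjusted p = 8.31e-05) and Dynlt2a1 (adjusted p = 0.00922) passed in wt/wt, and Kif2a did not (adjusted p = 0.105). In dcat/dcat the calls of Kif2a and Dynll1 held with the block (adjusted p = 0.000643 and 7.35e-06).

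The next comparison asked whether the loss of TENT5C activity changed the abundance of these transcripts. In RS, 0 of 117 members passed by edgeR, as did 0% of all contigs, and DESeq2 called 0. At an unadjusted p under 0.05 there was 1 member, beside 0.828% of all contigs. This was Klc4, at 18.3, 19.1 and 18.9 CPM in wt/wt and 13.9, 9.18 and 8.24 CPM in dcat/dcat. The groups did not overlap, and the log2 change was -0.84 ± 0.31 (adjusted p = 1). The next smallest p-values before adjustment were those of a sparse Kif27 contig (1.41 ± 0.76) and of Ift74 (-0.35 ± 0.21).

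In ES, 0 of 117 members passed by edgeR, as did 0% of all contigs. DESeq2 called 0 members and 1 of all 11831 contigs. At an unadjusted p under 0.05 there were 2 members, beside 3.01% of all contigs. A contig of Kif20a (ENSMUST00000166044) stood at 12.7, 20.9 and 17.7 CPM in wt/wt and at 6.96, 4.99 and 6.75 CPM in dcat/dcat, without overlap, a change of -1.42 ± 0.48 (adjusted p = 1). These dcat/dcat levels lay at or near the floor of 3 counts, worth 6.96, 7.49 and 5.07 CPM in those libraries. Summed over its contigs, Kif20a changed by -0.15 ± 0.27 (adjusted p = 1). Ift20 stood at 29.6, 22.8 and 10.6 CPM in wt/wt and at 30.1, 44.9 and 37.1 CPM in dcat/dcat, a change of 0.75 ± 0.35 (adjusted p = 1). Its level in ES wt/wt replicate 3 was the floor of 3 counts. The main Kif9 contig followed, with -0.39 ± 0.20 (adjusted p = 1).

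For 6 genes with several contigs higher in ES, chosen after their values were seen, the genotypes differed in ES by less than 2 SE. Kif27, which also had several contigs higher, is not among these 6. Summed over contigs, the log2 change from wt/wt to dcat/dcat in ES was -0.11 ± 0.18 for Dynll1, -0.04 ± 0.21 for Dynll2, 0.08 ± 0.23 for Dynlt5, -0.04 ± 0.22 for Ift172, 0.05 ± 0.17 for Kif2c and -0.36 ± 0.23 for Klc3. A change of about the size of these errors could not be seen with 3 libraries per group.

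The last comparison asked whether the change from RS to ES differed by genotype. By edgeR, 0 of 117 members passed and 0% of all contigs did, and DESeq2 called 0 members. At an unadjusted p under 0.05 there was 1 member, beside 1.44% of all contigs. This was again the Kif20a contig ENSMUST00000166044 (-1.46 ± 0.57, adjusted p = 1), which lay at or near the floor in dcat/dcat ES. Next came a contig of Kif7, a regulator of Hedgehog signalling at the ciliary tip, at 13.3, 4.77 and 5.91 CPM in wt/wt RS, 2.11, 1.90 and 10.6 CPM in wt/wt ES, 19.2, 17.0 and 6.59 CPM in dcat/dcat RS and 0, 0 and 1.69 CPM in dcat/dcat ES (adjusted p = 1). These ES levels lay at or near the floor. Klc4 came after it, with 1.33 ± 0.61 (adjusted p = 1). So the 8 contigs called between stages in wt/wt alone and the 15 called in dcat/dcat alone are not shown to differ by genotype.

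**Figure D5:**
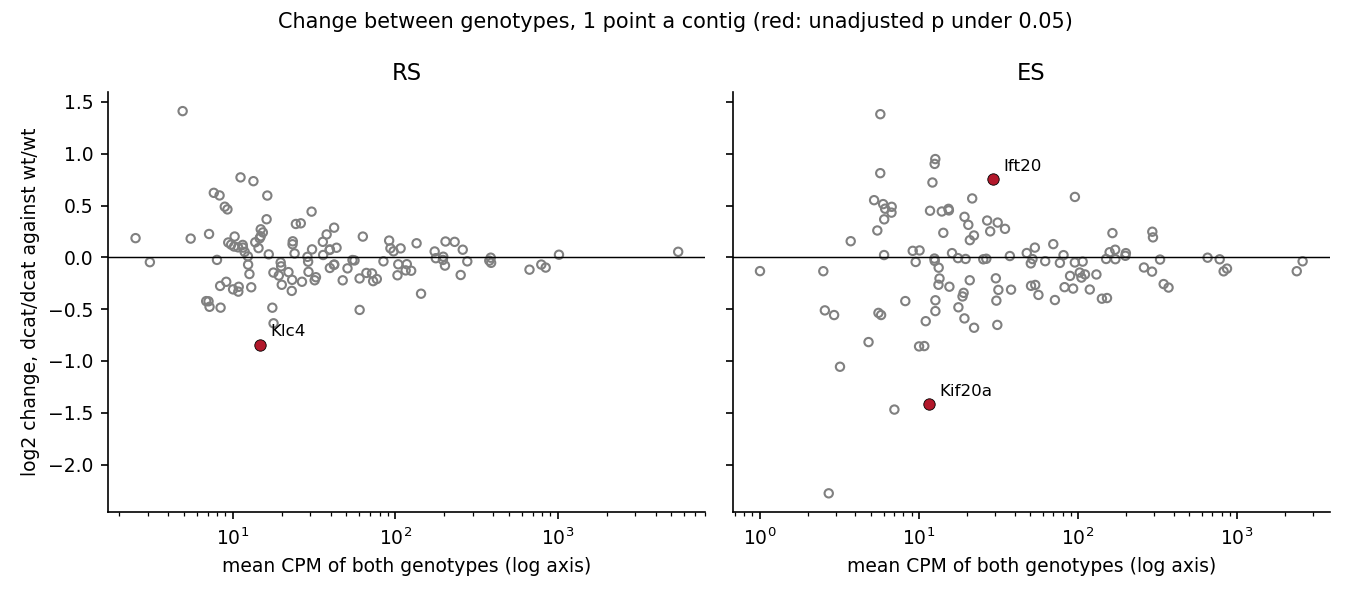
Log2 change from wt/wt to dcat/dcat (y axis) against the mean level in CPM (log axis) for each of the 117 member contigs tested, in RS (left) and ES (right), 1 point per contig. Points scatter around 0 and more widely at low levels; the named red points (Klc4 in RS, Kif20a and Ift20 in ES) had an unadjusted p under 0.05, and 0 contigs passed after adjustment.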

How the data were processed

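Direct RNA libraries of 12 pools of spermatids (4 groups of 3, pools of 3 mice) were read on a GridION. Per the labels and the study's methods, the authors aligned reads with minimap2 (2.20-r1061 in the processing notes) to GENCODE vM17 transcripts of build GRCm38 (mm10) and kept reads whose tail passed quality. The deposited table holds whole-number counts of reads per contig, without normalization. Selection on poly(A), the tail filter and the assignment of truncated reads among contigs can all change counts. Gene symbols came from the authors' DESeq2 tables, whose fold changes and p-values were not used.

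Counts were tested with edgeR 4.0.16 (R 4.3.3): TMM scaling, a filter of 10 or more counts in 2 or more libraries of any group (11831 contigs kept, with 117 of 118 members, the last being an Ift80 contig), a quasi-likelihood fit with 1 mean per group, and Benjamini-Hochberg adjustment over all contigs tested, with calls at 0.05. The SE is the log2 change divided by the square root of F. Contig usage was tested with diffSpliceDGE. Scripts were tested on simulated data. Alternatives were DESeq2 1.42.0, other scalings and filters, summing by symbol, a replicate block and leaving out libraries. Depth was 337287 to 1359427 counts per library, and floors cover counting error only. Positions and sequences came from GENCODE vM21 on GRCm38, where 117 of the 118 contigs were found.

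Named contigs were, per role, up to 3 called higher and 3 lower in wt/wt without overlap by smallest adjusted p, the one with most counts, all of Klc3, Dynll1 and Dynll2, the 3 with smallest p per genotype test and up to 5 genes for usage. For contigs named only as called, a lack of overlap between stages in wt/wt was thus fixed by the choice. Others named were chosen after their values were seen. Members, lists and tests were chosen with earlier results of these data known. Same-numbered libraries deviated together (over 5915 contigs) between genotypes in RS (correlations 0.798, 0.524 and 0.640) and between stages in dcat/dcat (0.644, 0.393 and 0.436). Replicates 1 and 2 did so too between stages in wt/wt (0.519 and 0.531) and between genotypes in ES (0.659 and 0.496). Replicate 3 did not (-0.191 and 0.0585), and both of these pairs hold ES wt/wt replicate 3. The study states that germ cell types were taken from the same mice, and that each sorting session held a mouse of each genotype. The labels do not say that a number marks the same pool.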

Additional observations from a re-analysis of the deposited data

How the results depend on the processing

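In wt/wt the number of members called between stages was 52, and in dcat/dcat 59. With total counts alone, which leaves the composition of libraries uncorrected, the numbers were 89 and 90. Summing contigs by symbol tests 68 genes in place of 117 contigs and called 39 and 37. Leaving out single libraries gave 41 to 53 and 44 to 59. In the replicate block fit 69 members were called in wt/wt (26 higher, 43 lower) and 74 in dcat/dcat (27 higher, 47 lower), the numbers of genotype and interaction calls stayed at 0, and the pairing of replicate numbers moved usage calls to 3 in wt/wt and 3 in dcat/dcat. With at least 10 counts in every library, usage was tested in 8 member genes and called 2 in wt/wt and 1 in dcat/dcat. Without single libraries usage calls ran from 1 to 2 in wt/wt (2 without RS wt/wt replicate 1) and from 0 to 2 in dcat/dcat (0 without ES dcat/dcat replicate 3). Genotype and interaction calls among members were 0 under each alternative run. Of 35 named contigs called between stages in wt/wt, 22 kept the call under each alternative run and 13 lost it under at least 1, most often without ES wt/wt replicate 2 (8 contigs), without ES wt/wt replicate 1 (6), without RS wt/wt replicate 2 (5) and with total counts alone (5). The minor Kif2a contig (ENSMUST00000122233), which did not pass, changed sign with total counts alone (-0.24 in place of 0.48). The cause of these shifts was not tested. For single contigs named between stages in dcat/dcat, losses of the call without single libraries are not given here. ES libraries were shallower than most RS libraries, and at 3 per group small changes of low contigs are not detectable at this depth.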
